A study of Homo sapiens with 14 samples.

Results

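The HOX clusters were described in 14 ATAC-seq libraries of SUM149PT, an established human inflammatory breast cancer line without oestrogen and progesterone receptors per the labels, and of clones derived from it. Of the 65774 consensus regions with deposited counts, the 24 that start within the 4 HOX clusters were taken by position alone, with no use of their values. The HOXA cluster held 11 regions, HOXB held 3, HOXC held 6 and HOXD held 4. The groups were the clones M1, M2, EM1, EM2, EM3 and E and the line labelled Parental, with 2 libraries each. No genotype change is given for any group and none was treated. Each clone group is 1 clone whose letters the labels do not spell out. By its title the series concerns EMT, the epithelial-mesenchymal transition, in which epithelial cells loosen their contacts and gain motility. ATAC-seq uses a transposase that places sequencing adapters into open DNA, so a region's count reflects how accessible its chromatin is. Since the cells were measured in bulk, a smaller share of cells with an open region and less opening in each cell cannot be told apart.

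HOX genes encode homeodomain transcription factors that give cells along the body axis their positional identity. In vertebrates they lie in the clusters A, B, C and D in paralogue groups numbered from 1 (anterior) to 13 (posterior), and neighbours are switched on in that order in the embryo. Polycomb complexes keep silent stretches of a cluster compact, while Trithorax complexes, retinoic acid and long non-coding RNAs of the clusters, such as HOTTIP, HOTAIR and HAGLR, take part in opening or closing others. TALE cofactors of the PBX and MEIS families bind DNA together with HOX proteins. Adult epithelia and the cancers that arise from them keep or alter part of this pattern.

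The promoters of 4 HOX genes whose start regions differed between clones in the results are shown as examples, and other starts that differed are described without sequence. RefSeq promoters (GRCh38.p14, 250 bases before to 50 after the start) were held for 20 of the 39 HOX genes of the clusters. Each is printed 5′ to 3′ on the strand of its gene, with every CG dinucleotide in capitals. The HOXA4 promoter lies at chr7:27130708-27131007 (minus strand), that of the distal HOXA10 start at chr7:27179812-27180111 (minus strand), that of HOXA13 at chr7:27200042-27200341 (minus strand) and that of HOXD1 at chr2:176188418-176188717 (plus strand).
HOXA4: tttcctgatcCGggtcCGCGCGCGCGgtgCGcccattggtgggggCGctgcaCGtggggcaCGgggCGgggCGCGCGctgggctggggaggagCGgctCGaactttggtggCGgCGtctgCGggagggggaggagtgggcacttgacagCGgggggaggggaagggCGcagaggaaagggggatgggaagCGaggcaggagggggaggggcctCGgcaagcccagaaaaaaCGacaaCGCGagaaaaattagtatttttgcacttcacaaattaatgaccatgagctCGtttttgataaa
HOXA10: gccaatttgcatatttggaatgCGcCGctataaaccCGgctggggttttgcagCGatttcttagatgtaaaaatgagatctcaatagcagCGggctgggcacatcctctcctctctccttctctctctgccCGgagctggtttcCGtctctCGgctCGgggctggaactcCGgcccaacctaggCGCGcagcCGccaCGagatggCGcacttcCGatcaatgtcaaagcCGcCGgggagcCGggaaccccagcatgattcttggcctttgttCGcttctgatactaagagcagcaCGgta
HOXA13: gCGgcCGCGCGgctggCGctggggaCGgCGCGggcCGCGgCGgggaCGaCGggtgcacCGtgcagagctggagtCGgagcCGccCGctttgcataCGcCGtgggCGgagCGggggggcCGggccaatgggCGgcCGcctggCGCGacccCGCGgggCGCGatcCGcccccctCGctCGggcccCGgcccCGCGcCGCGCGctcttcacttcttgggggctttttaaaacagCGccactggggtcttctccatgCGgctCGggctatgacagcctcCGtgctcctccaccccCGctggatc
HOXD1: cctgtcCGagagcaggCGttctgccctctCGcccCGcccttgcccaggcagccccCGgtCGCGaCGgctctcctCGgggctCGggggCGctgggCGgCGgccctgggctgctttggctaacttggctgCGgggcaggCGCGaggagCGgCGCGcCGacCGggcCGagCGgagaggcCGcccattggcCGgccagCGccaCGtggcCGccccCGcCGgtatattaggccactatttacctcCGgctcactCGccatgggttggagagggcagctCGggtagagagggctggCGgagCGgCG
The deposited region at the HOXA4 start covered 183 of these 300 bases, that at the distal HOXA10 start 217, that at HOXA13 214 and that at HOXD1 all 300.

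All 4 promoters are rich in CG. HOXA13 holds 44 CG dinucleotides, a number that 4.19% of the 35116 RefSeq promoters reach, and its bases are 76.3% G or C. HOXD1 holds 36 (12.7% of promoters reach it), HOXA4 holds 27 (28.2%) and the distal HOXA10 promoter holds 21 (39.5%). The median was 22 over the 27 HOX promoters in the table and 14 over all promoters, and the entries of HOXC4 and HOXC5 are 1 window, which leaves 26 different ones. The AP-1 motif TGANTCA, searched on both strands, was in 0 of the 27 HOX promoters and in 7.71% of all. The PBX-HOX motif TGATTNAT was in 2 of the 27 and in 2.82% of all, part of the CTCF motif in 5 and in 9.12%, and a motif of the posterior HOX type (TTTATNG) in 7, or 6 of the 26 different windows, and in 9.73%. Among the printed promoters, the distal HOXA10 promoter alone held any of these motifs, with the CTCF part at -55 and TTTATNG at -223 from the start. These matches are a description of letters in short windows.

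Library totals ran from 8138944 to 16786823 counts, of which 2223 to 6246 lay in the HOX regions. Values are CPM, counts scaled by TMM to a common library size, means are given ± SD with n = 2 libraries, log2 changes ± SE, and positions are in hg38. A change was called at a Benjamini-Hochberg adjusted p under 0.05 over the 65771 regions that passed the filter on low counts, from edgeR's quasi-likelihood test on all libraries, and all 24 HOX regions passed that filter. The 6 comparisons with Parental share its 2 libraries. Separate cultures for the libraries of 1 clone are not stated, so the p-values reflect the spread between these libraries, which may be technical. Intervals and floors cover counting error only. E replicate 1 stands apart: replicate libraries correlated at 0.873 in E and at 0.948 to 0.97 in the other groups, and its M2-like signal is given beside each result it touches. Whether this library is mixed was not tested. Of the 6 epithelial marker genes, 4 were matched by a gene end. CDH1, EPCAM, GRHL2, ESRP1 and KRT5 were called lower in M1 and in M2, and KRT8 was higher in M2 (1.40 ± 0.23). In EM2, CDH1, EPCAM, GRHL2 and KRT5 were called lower. KRT8 alone averaged 72.6 ± 10 CPM in M2 and 37.2 ± 9.18 CPM in M1, most of the sum in both clones. The summed level of the 6 was 50.3 to 63.9 CPM in M1, 73.6 to 86.8 in M2, 184 to 192 in EM1, 155 to 165 in EM2, 163 to 181 in EM3, 213 to 243 in E and 236 to 242 in Parental. That of VIM, FN1 and ZEB1 was 116 to 122 CPM in M1, 128 to 140 in M2, 63.4 to 71.2 in EM1, 87.9 to 115 in EM2, 63.6 to 82.5 in EM3, 48.9 to 61 in E and 57.4 to 62 in Parental. VIM and FN1 were called higher in M1 and in M2, while ZEB1 was called higher in M1 but not called in M2 (0.12 ± 0.17). VIM was also called higher in EM2 (1.15 ± 0.28). The region of the blood marker CD3E, matched by a gene end, was lower in M2 (-1.41) and in E (-1.22). ESR1, PGR, CDH2, PTPRC, PECAM1 and CDH5 had no region within 1 kb of a start, and the part of these states in the HOX results was not tested.

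Most HOX genes had no accessible region within them or near their start. Of the 39 HOX genes, 12 had a region within the annotated gene, 13 had one within 1 kb of the 5′ start, and 24 had neither. Regions were densest in HOXA, at 7.33 per 100 kb of its window, followed by 4 in HOXC, 3.08 in HOXD and 1.36 in HOXB. None of the genes HOXA9, HOXB7, HOXC10 and HOXD10, which stand for the clusters as markers, had a region of its own. The nearest region lay 1175 bp from HOXA9, a gene best known for its part in blood cell development and leukaemia, 4383 bp from HOXB7, 4988 bp from HOXC10 and 18677 bp from HOXD10. The results therefore describe elements between and at other HOX genes. Of 8 RefSeq miRNA hairpins in the windows, MIR7704 overlapped a region, that at the HOXD1 start, and the closest of the others lay 2858 bp from one.

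Over the 14 libraries the HOX regions had a median of 10.1 CPM, against 10 over all regions tested. The strongest region of HOXA was the 1315 bp region over the 5′ end of HOXA5 (chr7:27142685-27143999), at 33.5 CPM, and that of HOXD lay between HOXD12 and HOXD13 (chr2:176097311-176098101), at 23 CPM. In HOXC the region between HOXC9 and HOXC10, within the antisense transcript HOXC-AS2 (chr12:53995267-53995909), had 21 CPM, close to HOXC13 at 20 and the shared HOXC4 to HOXC6 start at 19.9, and the order of the 3 changed between groups. In HOXB the region between HOXB4 and HOXB5 (chr17:48585268-48585672) led at 5.9 CPM through M1 and M2, and was the weakest HOXB region in each of the other 5 groups. Per kb of region the order was different. The 266 bp region 516 bp from the HOXC11 start, within HOTAIR, led at 42.9 CPM per kb, the region of HOXC4, HOXC5 and HOXC6 had 34.1 and that at HOXA5 had 25.5.

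The sum over the 24 regions had its highest mean in M2 and its lowest in Parental. It was 328 and 340 CPM in M1, 380 and 477 in M2, 230 and 262 in EM1, 291 and 294 in EM2, 244 and 255 in EM3, 270 and 283 in E, and 234 and 250 in Parental. The values of M1, M2, EM2 and E did not overlap those of Parental, while those of EM1 and EM3 did. M2 was the highest group at 14 of the 24 regions, EM2 at 5, M1 at 4 and E at 1, where M2 was highest at 34.8%, EM2 at 9.21%, M1 at 18.3% and E at 9.87% of all regions. Parental was the lowest group at 6, EM1 and EM3 at 5 each, M2 at 4, and M1 and E at 2 each, where Parental was lowest at 10.7% and M2 at 33.5% of all regions. By the test of any difference among the 7 groups, 19 of the 24 regions differed, a share of 79.2% against 78.6% of all regions, so HOX regions varied among the groups about as often as other regions did. The 5 that did not pass lay near HOXA4 in the gap to HOXA5, in HOXB6, between HOXB8 and HOXB9, 516 bp from the HOXC11 start and in HOXD13. Without M2 replicate 2 the share that differed fell further for the HOX regions than for all regions, so this likeness rested in part on that library.

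**Figure D1:**
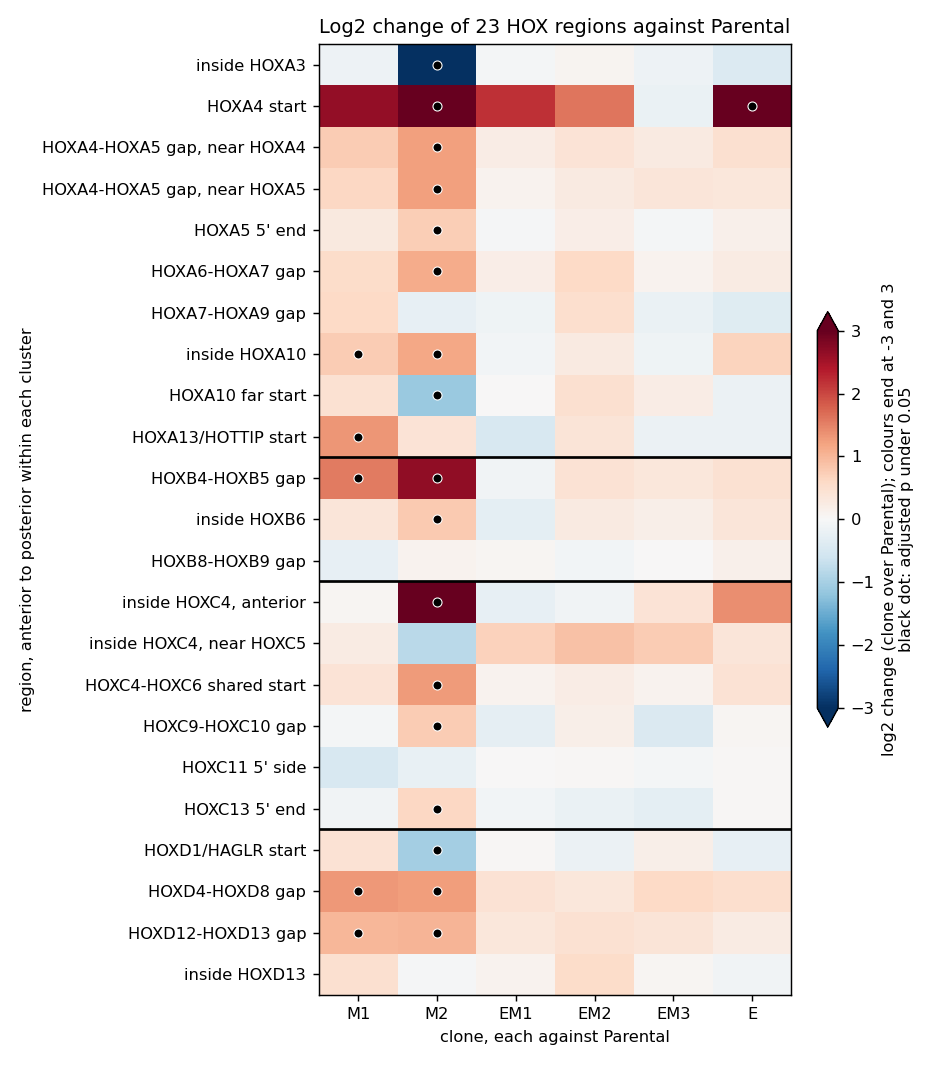
Log2 change of 23 of the 24 HOX regions (rows, anterior to posterior within HOXA, HOXB, HOXC and HOXD) in each of 6 clones against Parental (columns), with colours ending at -3 and 3 and a black dot where the adjusted p was under 0.05. M2 has 17 dots, M1 has 5, E has 1, and EM1, EM2 and EM3 have none.

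M2 had the most called HOX regions of the 6 clones, as it had over all regions. Against Parental, 15 of the 24 regions were called higher and 3 lower, or 75% in either direction, where 67.0% of all regions were called, 32.1% higher and 34.9% lower. Of the 12 regions within 1 kb of a HOX start, 7 were higher and 2 lower, where 42.8% of regions near any RefSeq start were higher and 20.6% lower. The median log2 change was 0.78 over the HOX regions and -0.01 over all regions. By cluster, HOXA had 7 higher and 2 lower of 11, HOXB 2 higher of 3, HOXC 4 higher of 6, and HOXD 2 higher and 1 lower of 4. After the median change of the regions within 5 Mb on either side of each cluster was removed, 10 were called higher and 6 lower.

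The HOXA4 start and a region inside HOXA3 changed in opposite directions in M2. The long HOXA3 annotation overlaps 6 regions, which run through the HOXA4 start and HOXA5 to the gap between HOXA6 and HOXA7. The most anterior of them is the one called the region inside HOXA3 here. The region 68 bp from the HOXA4 start (chr7:27130825-27131265), whose promoter is printed above, had 18.9 and 26.3 CPM in the 2 M2 libraries. M1 had 0.319 and 0.33 CPM, EM1 0.445 and 0.0697, EM2 0.154 and 0.156, EM3 0.0579 and 0, E 4.25 and 0.329, and Parental 0 and 0.0848. The M2 libraries stood alone at a level comparable with other HOX regions, E replicate 1 was the only other library above 0.5 CPM, and the 0 counts allow up to 0.302 CPM in EM3 replicate 2 and 0.272 CPM in Parental replicate 1. M2 had 509 counts and Parental 1, a ratio of 532 after scaling (95% exact interval 95.1 to 21100, adjusted p = 1.9e-05), and against the 8 counts of M1 the ratio was 71.6 (36 to 167, adjusted p = 7.7e-05). HOXA4 is a Hox4 paralogue that in the mouse helps to pattern the neck vertebrae.

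The region inside HOXA3, 15.2 kb to the anterior side (chr7:27115194-27115608, 1352 bp upstream of the nearest RefSeq HOXA3 start), was nearly without counts in M2. It had 0.458 CPM in each M2 library, 11.5 and 11.6 CPM in M1, 9.88 and 14.8 in EM1, 12.4 and 15 in EM2, 10.1 and 13.2 in EM3, 6.91 and 12.5 in E, and 13.5 and 12.4 in Parental. Only the M2 libraries fell below 6 CPM, and the other groups overlapped one another widely. M2 was lower than Parental by a log2 change of -4.79 ± 0.42 (adjusted p = 6.8e-07) and lower than M1 by -4.62 ± 0.42 (adjusted p = 1.9e-06). In counts it had 10 in M2 against 295 in Parental. HOXA3 is needed in the mouse for derivatives of the pharyngeal arches such as the thymus and parathyroid.

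Apart from the region inside HOXA3, HOXA was mostly more open in M2. Between HOXA4 and HOXA5 the region near HOXA4 rose by 1.24 ± 0.45 and that near HOXA5 by 1.22 ± 0.27, with adjusted p of 0.025 and 0.0013, though the region near HOXA4 was not called without M2 replicate 2 or without either Parental library. The strongest HOXA region, over the 5′ end of HOXA5, had 40.4 and 56.5 CPM in M2, against 28.7 and 29.4 CPM in Parental (0.74 ± 0.17, adjusted p = 0.0019). With the flank median removed its change was 0.36 and it was not called (adjusted p = 0.076). HOXA5 is needed in the mouse for normal lung development.

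Further towards the posterior end, M2 changes split within the same gene. The region between HOXA6 and HOXA7 (chr7:27150440-27151111), which also covers 1 of the RefSeq HOXA3 starts, averaged 24.9 ± 3.85 CPM in M2 and 11.5 ± 2.31 CPM in Parental (1.12 ± 0.23, adjusted p = 0.00079). HOXA10 is a posterior gene known for its part in uterine development. The region inside it (chr7:27173204-27173743), 577 bp downstream of another RefSeq HOXA10 start, averaged 25.2 ± 7.52 CPM in M2 and 11.4 ± 1.39 CPM in Parental (1.15 ± 0.28, adjusted p = 0.0025). The distal HOXA10 start (chr7:27179814-27180030), shared with the HOXA10-HOXA9 readthrough and printed above, had 1.72 and 1.83 CPM in M2, against 3.08 and 4.67 CPM in Parental (-1.12 ± 0.36, adjusted p = 0.015). The M2 values lay below those of all other libraries, but the call against Parental did not pass without either M2 library or without Parental replicate 2. The region between HOXA7 and HOXA9 (-0.25 ± 0.25) and that at HOXA13 (0.41 ± 0.30) were not called in M2 against Parental.

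**Figure D2:**
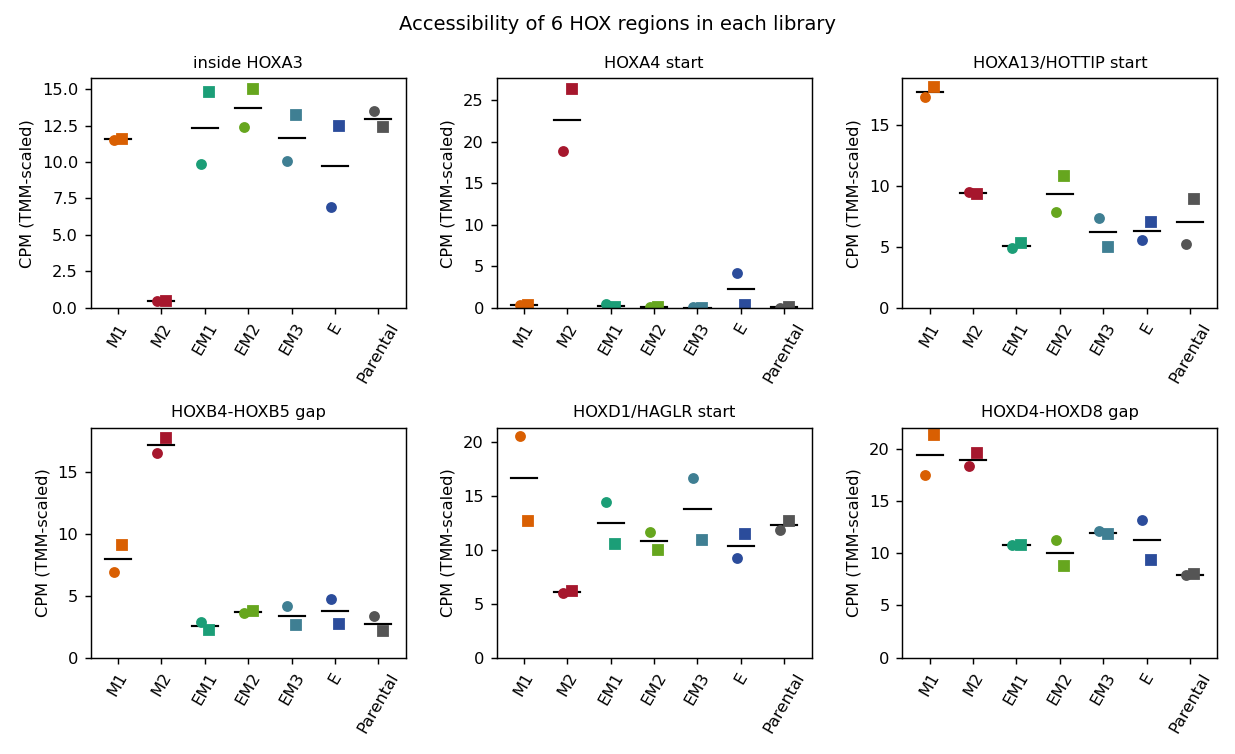
CPM of 6 HOX regions in each library (circle: replicate 1, square: replicate 2, bar: mean of 2), for M1, M2, EM1, EM2, EM3, E and Parental. The HOXA4 start is open in the M2 libraries (18.9 and 26.3 CPM) while the region inside HOXA3 is at 0.458 CPM there, and the HOXA13/HOTTIP start is highest in the M1 libraries (17.3 and 18.2 CPM).

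In HOXB the region between HOXB4 and HOXB5, inside the long HOXB3 annotation, was graded across M2, M1 and the rest. It had 6.91 and 9.12 CPM in M1, 16.6 and 17.8 in M2, 2.85 and 2.23 in EM1, 3.62 and 3.74 in EM2, 4.17 and 2.62 in EM3, 4.73 and 2.75 in E, and 3.36 and 2.12 in Parental. The M1 and M2 values overlapped neither each other nor any other library. M2 was higher than Parental by 2.65 ± 0.36 (adjusted p = 2.8e-05) and M2 higher than M1 by 1.10 ± 0.33 (adjusted p = 0.012). HOXB4, on its anterior side, is known for supporting the renewal of blood stem cells. Within 1 Mb of HOXB, the median change of other regions was 0.64 in M2 against Parental and 0.60 in M2 against M1. Within 5 Mb these medians were 0.10 and 0.13. The region inside HOXB6 averaged 7.26 ± 0.104 CPM in M2 and 4.19 ± 0.795 CPM in Parental (0.79 ± 0.29, adjusted p = 0.03). It was not called with library totals as the scale, without either M2 library or without Parental replicate 1. With the flank median removed it stood at 0.69 and was not called either (adjusted p = 0.053). Between HOXB8 and HOXB9 no group differed by the test of any difference, with group means of 4.39 to 5.81 CPM.

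In HOXC, M2 rose most at the anterior end. The region inside HOXC4 (chr12:54052699-54052972) had 11.7 and 14.5 CPM in M2, against 1.81 and 1.27 CPM in Parental (3.08 ± 0.43, adjusted p = 3.9e-05). In M1 it had 1.28 and 1.85 CPM, in EM1 1.42 and 1.19, in EM2 1.54 and 1.32, in EM3 2.32 and 1.71, and in E 5.7 and 2.53. M2 stood above all others, and E replicate 1 was the next library. The region 994 bp downstream of the 5′ end shared by HOXC4, HOXC5 and HOXC6 (chr12:54017882-54018464) had 30.2 and 41 CPM in M2, against 13.4 and 16.1 CPM in Parental (1.27 ± 0.19, adjusted p = 7.6e-05). With the flank median removed its change was 0.58 and it kept its call (adjusted p = 0.018). The HOXC4 region near HOXC5, which lies between them, was lower in M2 without a call (-0.81 ± 0.36, adjusted p = 0.059). HOXC6 is expressed in the mammary gland.

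Between HOXC9 and HOXC10 and at HOXC13 the M2 changes were of the size of the surrounding chromosome, and at HOXC11 (-0.22) the change was below it. The region between HOXC9 and HOXC10 had 28.6 and 39 CPM in M2, against 19 and 20.7 CPM in Parental (0.77 ± 0.23, adjusted p = 0.0084). In M1 it had 21.3 and 17 CPM, in EM1 13.1 and 19.8, in EM2 22.9 and 21.9, in EM3 14.2 and 15.2, and in E 18.7 and 22.5. The region over the 5′ end of HOXC13, a gene that acts in hair and nail formation, averaged 30.1 ± 6.55 CPM in M2 and 19.6 ± 2.11 CPM in Parental (0.62 ± 0.20, adjusted p = 0.014). The median log2 change of the 370 regions within 5 Mb of HOXC was 0.69 in M2, beside 0.70 for the HOXC regions. With that median removed, the change was 0.08 between HOXC9 and HOXC10 and -0.08 at HOXC13, and neither was called. With it removed, the region inside HOXC4 near HOXC5 (-1.50) and the HOXC11 region (-0.92) were called lower in M2, at adjusted p of 0.0022 and 0.0064. The calls between HOXC9 and HOXC10 and at HOXC13 were also lost without M2 replicate 2 and without Parental replicate 1. DNA copy number and accessibility over such a stretch cannot be told apart from these counts.

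In HOXD the direction in M2 depended on the position. The region between HOXD4 and HOXD8 (chr2:176140522-176141191) had 18.3 and 19.6 CPM in M2, against 7.89 and 7.98 CPM in Parental (1.26 ± 0.23, adjusted p = 0.00034). That between HOXD12 and HOXD13 had 30.9 and 33.8 CPM in M2, against 17.1 and 14.6 CPM in Parental (1.03 ± 0.20, adjusted p = 0.00058). HOXD12 and HOXD13 are the posterior genes that pattern digits. The region at the HOXD1 and HAGLR start (chr2:176188321-176188940), whose promoter is printed above, had 5.96 and 6.19 CPM in M2, against 11.9 and 12.7 CPM in Parental (-1.02 ± 0.30, adjusted p = 0.0093). The region inside the HOXD13 annotation did not differ by the test (-0.03 ± 0.31).

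M1 had fewer HOX changes and all were gains. Against Parental, 6 regions were called higher and 0 lower, where 19.0% of all regions were higher and 23.4% lower. Of the 12 near a HOX start, 3 were higher and 0 lower, where 10.3% of regions near any start were higher and 13.6% lower. With the HOX share at 25% in either direction, against 42.4% of all regions, calls were no more frequent in the clusters than elsewhere. By DESeq2's test the number was 6 higher and 0 lower, and 9 of 24 had an unadjusted p under 0.05 in edgeR's. Without Parental replicate 2 the number was 3. The median log2 change was 0.46 over the HOX regions and 0.01 over all.

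The largest M1 gains lay in HOXB, HOXA and HOXD. At the region between HOXB4 and HOXB5, M1 was higher than Parental by 1.56 ± 0.36 (adjusted p = 0.0031), with the adjusted p at 0.051 without Parental replicate 2. The HOXA13 and HOTTIP start (chr7:27200128-27200639), printed above, had 17.3 and 18.2 CPM in M1, against 5.26 and 8.91 CPM in Parental (1.32 ± 0.30, adjusted p = 0.0026). There M2 had 9.51 and 9.32 CPM, EM1 4.9 and 5.3, EM2 7.86 and 10.8, EM3 7.41 and 5.04, and E 5.58 and 7.03, so that the highest other library reached 10.8 CPM. HOXA13 is the most posterior gene of its cluster, acting in limb and urogenital development, and HOTTIP is a long non-coding RNA that in human fibroblasts maintains the activity of posterior HOXA genes.

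The region between HOXD4 and HOXD8 had 17.5 and 21.3 CPM in M1, against 7.89 and 7.98 CPM in Parental (1.30 ± 0.23, adjusted p = 0.00051). EM1, EM2, EM3 and E lay between 8.73 and 13.2 CPM, and the M2 libraries lay within the M1 range. Between HOXD12 and HOXD13, M1 had 34.2 and 28.9 CPM, against 17.1 and 14.6 CPM in Parental (0.99 ± 0.20, adjusted p = 0.0014), while EM1 had 21.8 and 18.2, EM2 24.7 and 18.8, EM3 20.3 and 20.9, and E 21.5 and 16.3. The region inside HOXA10 had 19.1 and 19.3 CPM in M1, against 10.4 and 12.4 CPM in Parental, and passed narrowly (0.75 ± 0.28, adjusted p = 0.044). It lost its call with the flank median removed, and also when any 1 of the 4 libraries was left out. In HOXC the log2 changes in M1 ran from -0.48 to 0.41, with adjusted p of 0.11 or more. The strongest HOXA region, over HOXA5, had 34.9 and 36.5 CPM in M1, against 28.7 and 29.4 CPM in Parental, and did not pass (0.30 ± 0.17, adjusted p = 0.19).

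**Figure D3:**
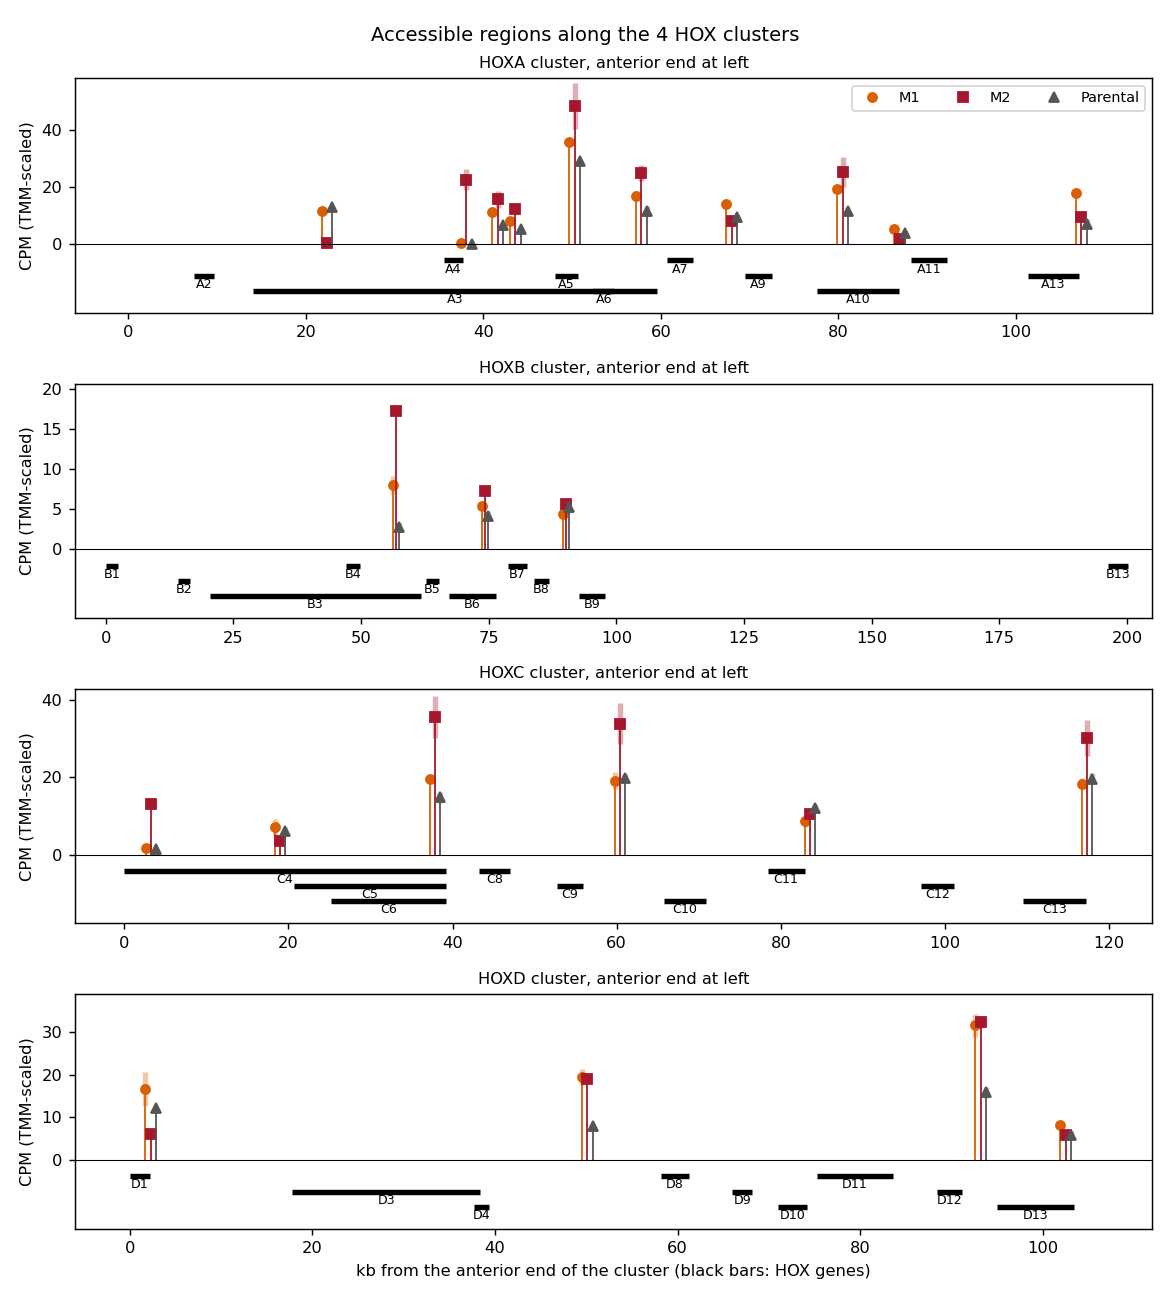
Mean CPM of 23 of the 24 HOX regions in M1 (circles), M2 (squares) and Parental (triangles) by distance in kb from the anterior end of each cluster, with a pale bar from the lower to the higher of the 2 libraries and black bars for the HOX genes. M2 is the highest of the 3 at most HOXA, HOXB and HOXC regions, and the M1 symbol is highest at HOXD1 and at the HOXA13 start.

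M2 and M1 differed from each other at 15 regions, 9 higher and 6 lower in M2, where 56.3% of all regions differed, 27.2% higher and 29.1% lower. With the flank medians removed the numbers were 5 and 6. Those higher in M2 than in M1 included the HOXA4 start, HOXA5 (0.45 ± 0.17), the region between HOXA6 and HOXA7 (0.57 ± 0.22), the region between HOXB4 and HOXB5, and 4 of the 6 HOXC regions. The region inside HOXC4 led in HOXC at 3.04 ± 0.43, followed by the shared HOXC4 to HOXC6 start (0.86 ± 0.19), the gap between HOXC9 and HOXC10 (0.83 ± 0.23) and HOXC13 (0.72 ± 0.20). The last 3 of these lost their call with the flank median removed, which was 0.73 for HOXC between M2 and M1. With the HOXA flank median removed, HOXA5 (0.37) and the region between HOXA6 and HOXA7 (0.50) lost theirs as well. These HOXA calls were also lost with library totals as the scale and with the 4 libraries compared alone.

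Lower in M2 than in M1, beside the region inside HOXA3, were 5 regions in HOXA, HOXC and HOXD. HOXD1 had 5.96 and 6.19 CPM in M2, against 20.6 and 12.7 CPM in M1 (-1.44 ± 0.30, adjusted p = 0.0013), with EM1 at 14.5 and 10.6, EM2 at 11.7 and 9.98, EM3 at 16.7 and 10.9, and E at 9.22 and 11.5. The distal HOXA10 start was lower by -1.57 ± 0.36 (adjusted p = 0.0023), the HOXA13 start by -0.92 ± 0.29 (0.017), the gap between HOXA7 and HOXA9 by -0.84 ± 0.25 (0.013) and the HOXC4 region near HOXC5 by -1.06 ± 0.35 (0.021). The HOXD gaps that had risen in both clones differed between M2 and M1 by -0.04 ± 0.22 between HOXD4 and HOXD8 and by 0.04 ± 0.20 between HOXD12 and HOXD13, neither past the test. With the flank median removed, the gap between HOXD12 and HOXD13 was called higher in M2 (0.58, adjusted p = 0.024). Without M2 replicate 2 the number of called regions was 7 of 24 and without M1 replicate 2 it was 9. The calls at the region inside HOXA3, the HOXA4 start, the distal HOXA10 start, the anterior HOXC4 region, the shared HOXC4 to HOXC6 start and HOXD1 held without any 1 of the 4 libraries. The gap between HOXA7 and HOXA9 was lost without M2 replicate 1, the HOXA13 start without M1 replicate 2 or either M2 library, and the other 6 named here without M2 replicate 2 and, separately, without at least 1 of the M1 libraries. Of the 6 regions called higher in M1 against Parental, 5 were also called higher in M2, and both comparisons use the same Parental libraries. Over all regions, 32.1% were higher in M2 against Parental. How many of all regions higher in M1 were also higher in M2 was not counted, so this overlap is not read as particular to HOX.

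Regions were also counted by paralogue group, taking the most posterior HOX gene that the region overlaps or lies beyond, counted from the anterior end. In M2, of the 13 regions in groups 4 to 8, 10 were higher and 0 lower, with a median of 1.22. Of the 8 in groups 9 to 13, 4 were higher and 1 lower, with a median of 0.52. Over all regions, 32.1% were higher in M2 and 34.9% lower. With the flank median removed, groups 4 to 8 were not uniform in M2. The gap between HOXA7 and HOXA9 (-0.63) and the HOXC4 region near HOXC5 (-1.50) were called lower. The regions near HOXA4, over HOXA5 and inside HOXB6 lost their calls, and the others called higher kept theirs. In groups 9 to 13 the gap between HOXC9 and HOXC10 and HOXC13 lost their calls, and the HOXC11 region (-0.92) was called lower. The region inside HOXA3 and the HOXD1 start, both called lower in M2, lie in groups 1 to 3, which are not counted here. In M1, groups 4 to 8 had 2 regions called higher and groups 9 to 13 had 3, with medians of 0.55 and 0.46. None of them was called lower, where 19.0% of all regions were higher in M1 and 23.4% lower. No test was made of these differences between classes, and each class joins regions of several clusters.

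The clones EM1, EM2 and EM3 had no called HOX region. Against Parental, 0 of 24 were called in EM1 (0 by DESeq2's test, and 0 with an unadjusted p under 0.05), where 0.628% of all regions were. In EM2 0 were called (0 by DESeq2's test, 4 with an unadjusted p under 0.05), where 9.19% of all regions were, and in EM3 0 were called (0 by DESeq2's test, 2 with an unadjusted p under 0.05), where 3.11% of all regions were. EM2 leaned upwards without passing: 20 of its 24 log2 changes were above 0, all 11 in HOXA among them, and the median was 0.30 over the HOX regions and 0.02 over all. In HOXA the EM2 median was 0.41, beside 0.20 in its 5 Mb flanks, and with that removed the region inside HOXA3 stood at -0.12. The summed HOXA level was 140 and 152 CPM in EM2, 161 and 171 in M1, 179 and 239 in M2, 95.3 and 127 in EM1, 110 and 117 in EM3, 117 and 144 in E, and 109 and 119 in Parental. Among the EM2 regions that came closest to a call was the HOXC4 region near HOXC5, at 11.6 and 10.8 CPM in EM2 against 4.81 and 7.21 CPM in Parental (0.89 ± 0.33, adjusted p = 0.12). In EM3 12 to 16 and in EM1 10 to 13 of the 24 log2 changes were above 0, depending on the scaling.

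Clone E had 1 called HOX region, the HOXA4 start, where 11.6% of all regions were called and 5.27% were higher. It rested on E replicate 1, with 35 counts or 18.2% of the mean M2 level (95% exact interval 12.7 to 25.3), while E replicate 2 had 3 counts or 1.41% (0.291 to 4.13). The 10 libraries of M1, EM1, EM2, EM3 and Parental had 20 counts in all, with 0 to 5 each. E had 38 counts against 1 in Parental, a ratio of 50 (95% exact interval 8.44 to 2020, adjusted p = 0.02). The call was lost without E replicate 1 and without either Parental library. The region inside HOXC4, open in M2, had an adjusted p of 0.059 in E (1.40 ± 0.44), with 5.7 CPM in E replicate 1 and 2.53 in E replicate 2. At the region inside HOXA3, closed in M2, E replicate 1 had 6.91 and E replicate 2 had 12.5 CPM, against 13.5 and 12.4 CPM in Parental. Leaving out E replicate 1 changed no count of HOX regions called in the comparisons without E.

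Chromosomal surroundings were compared with each cluster. In M2 the median change against Parental was 1.12 in HOXA and 0.38 in the 242 regions of its 5 Mb flanks, 0.79 in HOXB and 0.10 in 334, and 0.50 in HOXD and -0.23 in 307. For HOXB, flanks of 1 Mb gave 0.64 in place of 0.10, and for HOXA they gave 0.15 in place of 0.38. In M1 the medians were 0.61 in HOXA and 0.31 in its flanks, 0.37 and 0.00 in HOXB, -0.01 and -0.03 in HOXC, and 0.73 and 0.31 in HOXD. The M1 flank values left 4 of the 6 M1 calls, at the HOXA13 start, between HOXB4 and HOXB5, and at both HOXD gaps.

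**Figure D4:**
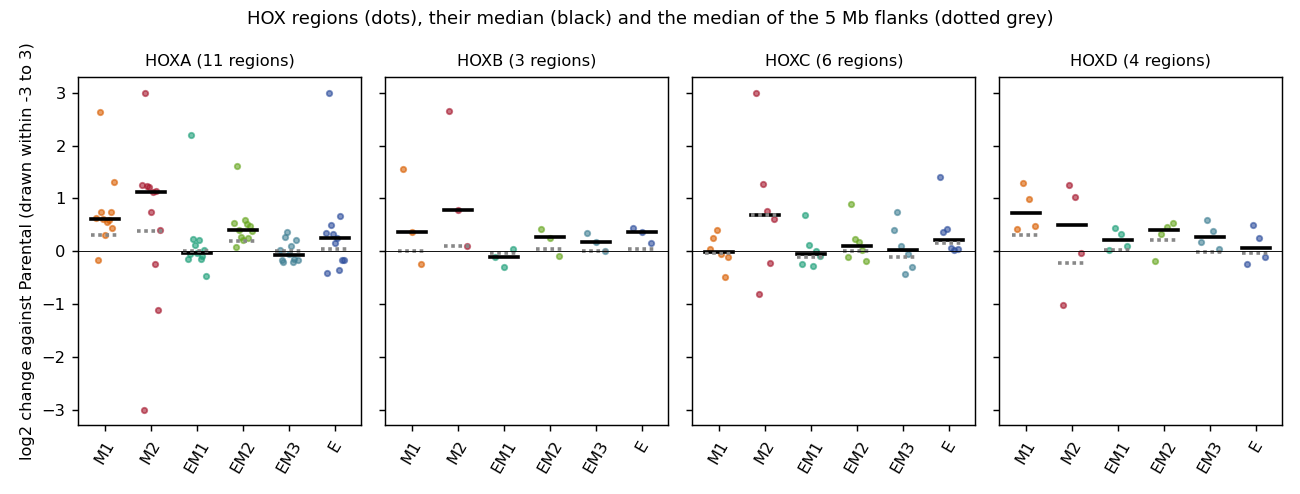
Log2 change against Parental of each HOX region (dots, drawn within -3 to 3), the median of the cluster's regions (black bar) and the median of the regions within 5 Mb on either side (dotted grey bar), by cluster and clone. In M2 the HOXC bars coincide (0.70 and 0.69), whereas in HOXA the cluster median of 1.12 stands above the flank median of 0.38.

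The genes that act on HOX clusters were read from their own start regions. Of 49 such genes, 27 had a region within 1 kb of a start or, for 7 of them, of an annotated gene end. In M1, 3 of the 27 were called higher and 1 lower, against 10.3% higher and 13.6% lower among regions near any start. In M2, 16 were called higher and 4 lower, against 42.8% higher and 20.6% lower among regions near any start. In EM1, EM2, EM3 and E edgeR called 0 of the 27, where 0.522%, 5.28%, 1.91% and 6.50% of regions near any start were called in that order. DESeq2's test called 0, 0, 1 and 1, and 1, 2, 1 and 4 had an unadjusted p under 0.05 in edgeR's. The median log2 changes were 0.14 in M1 and 0.60 in M2.

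Among Polycomb genes, 2 of 8 were higher in M1 and 6 of 8 in M2, where 10.3% and 42.8% of regions near any start were. These short lists were not tested against those shares. CBX7, which encodes a reader of the Polycomb mark, had 15.1 and 15.9 CPM in M1, 16.9 and 24.1 CPM in M2, and 8.89 and 7.13 CPM in Parental, a log2 change of 0.95 ± 0.26 in M1 (adjusted p = 0.0088) and 1.36 ± 0.26 in M2 (adjusted p = 0.00041). EZH2, the methyltransferase that writes the mark, was higher by 0.50 ± 0.16 in M1 (adjusted p = 0.023) and 0.79 ± 0.16 in M2 (adjusted p = 0.00077). Of the 7 Trithorax and demethylase genes, 0 were called in M1 (0 by DESeq2's test and 0 with an unadjusted p under 0.05). In M2, 5 of the 7 were higher, beside the same 42.8%, among them KMT2B, a histone methyltransferase (0.84 ± 0.14). CTCF and RAD21, which encode boundary and cohesin proteins, were not called in M1 or M2.

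Of the TALE cofactors, MEIS1 was higher in M1 (0.52 ± 0.18, adjusted p = 0.037) and in M2 (0.73 ± 0.18, adjusted p = 0.0033). PKNOX1 was higher in M2 by 0.82 ± 0.26 and PKNOX2 was lower, with a log2 change of -1.35 ± 0.22. The retinoic acid genes split in M2. The start of RARA, a retinoic acid receptor, averaged 30.9 ± 6.77 CPM in M2 and 13.1 ± 1.55 CPM in Parental (1.24 ± 0.22, adjusted p = 0.00024), and that of RARG averaged 11.2 ± 1.28 CPM in M1, 10.6 ± 1.64 CPM in M2 and 19 ± 1.95 CPM in Parental, lower in both clones.

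In M2 the genes of retinoic acid synthesis had the largest changes of the 27. ALDH1A3, a retinaldehyde dehydrogenase used as a breast cancer stem cell marker, had 1.37 and 1.76 CPM in M2, against 39.4 and 35.1 CPM in Parental (-4.54 ± 0.21, adjusted p = 5.9e-09), and it had 36.7 and 36.5 CPM in M1. ALDH1A2, the main retinaldehyde dehydrogenase of the embryo, had 7.33 and 9.47 CPM in M2, 0 in both M1 libraries, 1.21 and 0.11 in E, and 0.0907 and 0 in Parental. In counts that was 188 in M2 and 1 in Parental, a ratio of 197 (95% exact interval 34.9 to 7800, adjusted p = 0.0001). Against the 0 counts of M1, the 95% exact interval of the ratio began at 56.8. E replicate 1 carried more of this signal than E replicate 2. The ParaHox genes CDX1, CDX2, CDX4, GSX1 and GSX2 and the cluster neighbours EVX1 and EVX2 had no region within 1 kb of a start, and PDX1, matched by a gene end, was lower in M2 (-4.14 ± 0.30).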

How the data were processed

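The deposited table holds raw counts of ATAC-seq reads per library in consensus regions of hg38, made by the authors. The submitters' processing notes name, with no role for each, featureCounts, deepTools, MACS2 2.1.1, Picard, Bowtie2 2.2.6, cutadapt 1.9.1 and bcl2fastq 2.20.0.422. The sources used here do not describe how peaks were merged into regions or whether reads were shifted to the cut site. Peak lists were left out, since some are filed under a sample of another clone than the one they name. Columns were matched to samples by name and grouped by the labels.

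The clusters were the windows chr7 27.08 to 27.23, chr17 48.52 to 48.74, chr12 53.92 to 54.07 and chr2 176.07 to 176.20 Mb. The filterByExpr filter (minimum count 10) removed 3 regions and left 65771. TMM-scaled counts were tested with edgeR 4.0.16 (R 4.3.3, quasi-likelihood F test, 7 group means on 14 libraries, Benjamini-Hochberg adjustment, common biological coefficient of variation 0.208). The fit was tested on simulated data for M1 against Parental. It recovered 0 of 67 regions changed 1.5-fold, 4 of 67 changed 2-fold and 41 of 66 changed 4-fold. Far fewer regions were changed there than were called in M1, which makes the adjusted threshold stricter. The share missed therefore does not carry over to these data. Regions without a call may still differ. The members, lists and rules were chosen with earlier results of these data known. Every region enters the counts and medians, but the values of 1 HOX region and of some listed genes are not reported here. By rule, values per library were given for the strongest region of each cluster and for the called region with the largest change in each cluster and comparison of M1, M2 and EM2 with Parental and of M2 with M1. Regions near a HOX start with a call were also included. The regions inside HOXA3, near HOXA4 and HOXA5, in HOXC4 near HOXC5 and between HOXA7 and HOXA9 were named after their values were seen. HOX starts came from the RefSeq promoter table, or from the gene end on the strand shared by the cluster. Regulator regions were the strongest within 1 kb of a start, or of a gene end where the promoter table had no entry. Library totals of 8138944 to 16786823 counts set the precision.

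Alternatives were other scalings, DESeq2 1.42.0, no filter, a log2 limit of 1, a replicate block, the 4 libraries compared alone, the flank median removed and leaving out each library. Leaving out E replicate 1 for the other comparisons and flanks of 1 Mb were chosen after seeing the data.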

Additional observations from a re-analysis of the deposited data

How the results depend on the processing

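Over all alternatives run on the 40 calls of single HOX regions, 378 values kept the call, 74 kept the direction without it and 2 turned: HOXC13 in M2 with the flank median removed, to -0.08 against Parental and -0.01 against M1. In M2 against Parental, the calls at the region inside HOXA3, the HOXA4 start, the anterior region inside HOXC4 and HOXD1 held under every alternative run. A log2 limit of 1 left 3 regions in M1 and 7 in M2 against M1. The 4 libraries alone left 0 in E. Leaving out single libraries gave 3 to 6 regions in M1, 13 to 18 in M2, 0 to 2 in E, 7 to 15 in M2 against M1, and 12 to 19 for any difference, with the lowest values without Parental replicate 2 in M1 and without M2 replicate 2 in the comparisons with M2. The highest values in M1, M2 and M2 against M1 are those without E replicate 1. A group left with 1 library was assumed to vary like the others. With library totals in place of TMM, the median log2 change of all regions shifted by -0.11 in M2 against Parental and by -0.15 in M2 against M1, with 14 HOX regions higher and 4 lower against Parental. Depth limits the HOXA4 start and HOXA3 most, with 10 counts or fewer in a group.

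The replicate numbers are not stated to mark a shared batch, and the correlation of replicate differences between groups ran from 0.0232 to 0.59, under 0.1 for 2 pairs with E, so they were not taken as a pairing. With a replicate block, 10 regions were called in M1, 1 in EM2 and 2 in E, and the other counts stayed within 1.5 times.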
